A study of Mus musculus with 18 samples.

Results

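The flow response difference asked whether 3 h of fluid flow changed gene expression differently in kidney tubule cells labelled Ift140 knockout than in wild-type cells. For each gene it is the change under flow in Ift140 knockout cells minus the change under flow in wild-type cells. The cells were IMCD3, a mouse line of the inner medullary collecting duct. Of the 18 libraries of the series, 12 enter this difference, 3 in each of 4 groups: Ift140 knockout cells under flow, Ift140 knockout cells in static culture, wild-type cells under flow and wild-type cells in static culture. Flow was a shear stress of 0.7 dyne/cm2 in microslide chambers, and static cells were kept in the same chambers for the same time. Per the labels, all groups share the strain background Tg(SV40E)bri/7, passage 10 to 15 and culture medium with fetal calf serum. The labels do not say how many clones stand for the knockout or whether replicates were separate cultures, so the p-values measure the spread between these samples, which may be technical.

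Ift140 encodes a core subunit of intraflagellar transport complex A, which with the ciliary dynein motor carries material from the tip of the cilium back to its base and helps load membrane proteins into the cilium. Tubule cells carry a primary cilium that bends when urine flows past, and loss of its transport machinery causes cystic kidney disease. Shear also reaches cells by routes other than the cilium, such as adhesion sites, ion channels and growth factor receptors. By which route flow acted on the genes below was not tested.

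The library facts that bear on the difference come first. Ift140 itself (GRCm38, chromosome 17, 25016085 to 25099495) stood at 7.77, 8.70 and 15.8 scaled TPM, a level per gene length, in knockout cells under flow and at 6.39, 6.61 and 7.67 in static knockout cells. Wild-type cells held 16.9, 15.4 and 19.0 under flow and 16.6, 19.7 and 19.0 in static culture. Knockout flow replicate 3 was thus near the wild-type level, and its genes also deviated most from their group means (SD 0.380 on log2, against 0.220 to 0.327 in the other 11 libraries). The knockout minus wild type was -1.30 on log2 in static culture (adjusted p = 0.00205) and -0.68 under flow (adjusted p = 0.0603; -0.96, adjusted p = 0.00112, without knockout flow replicate 3). The genes that passed are therefore given with and without that library. The Ift140 values are RNA levels and do not show how much protein remained. The epithelial keratin Krt8 had at least 1129 TPM in every library, while the collecting duct water channel Aqp2 had at most 0.05 TPM. Of 15 principal cell markers 4 passed the filter. Hoxb7 had 10.64 to 17.55 TPM and Sgk1 at most 71.62 TPM, with Nr3c2 at most 5.04 TPM and Scnn1g at most 3.49 TPM. Among the epithelial markers, Cdh16 had 207.77 to 395.65 TPM and Pax8 44.07 to 108.36 TPM. The collecting duct label thus rests here on few of its listed markers, and not on Aqp2. Markers of other cell types were mixed, in TPM as deposited. Of 10 intercalated cell markers 1 passed the filter, Car2 (14.3 to 34.0 TPM), while Foxi1 was listed at 0 in all 12 libraries. Of 11 endothelial markers 2 passed, Flt1 (5.71 to 13.9 TPM) and Egfl7 (8.22 to 17.0 TPM), while Cdh5 had at most 0.11 TPM. Of 11 leukocyte markers 3 passed, with Csf1r the highest (5.42 to 16.3 TPM), and of 10 fibroblast markers 2, Col1a1 and Postn, at most 4.83 TPM, while Pdgfra had at most 0.45 TPM. Of 8 thick limb and distal tubule markers 2 passed, with Trpm6 the highest (37.6 to 94.4 TPM). The 12 proximal tubule markers, of which 4 passed, summed to 70.3 to 136 TPM in knockout cells under flow and 82.5 to 104 TPM in static knockout cells, and to 375 to 459 TPM in wild-type cells under flow and 419 to 451 TPM in static wild-type cells. Cubn, the endocytic receptor gene cubilin, had 2.24 to 6.70 TPM in the knockout and 354 to 435 TPM in wild type. Its partner Lrp2 had 60.9 to 124 TPM in the knockout and 14.9 to 23.1 TPM in wild type, while Slc34a1 was listed at 0 throughout. Knockout flow replicate 3, whose Ift140 was near wild type, had 6.70 TPM of Cubn and 124 TPM of Lrp2, outside both wild-type ranges. The flow response difference did not pass for Cubn (0.63, adjusted p = 0.683) or Lrp2 (0.27, adjusted p = 0.929), and the part of these lists in the results was not tested. TPM keeps no sequencing depth, so the depth behind each value is unknown.

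Most of the flow response was shared between the lines. Under flow 2100 of the 16225 genes tested passed in Ift140 knockout cells and 2708 in wild-type cells (limma on log2 of scaled TPM plus 1, adjusted p under 0.05), and 1419 passed in both, which is 67.6% of the first list and 52.4% of the second. Of those, 1417 moved in the same direction. Across all genes, which are not independent replicates, the responses of the lines had a Pearson correlation of 0.57; the lines share no library. The difference itself passed for 6 genes, 0.037% of those tested, 3 of them higher and 3 lower in the knockout (0.0185% each). At an unadjusted p under 0.05, 463 genes lay above 0 (2.85%) and 593 below (3.65%). Whatever their p, 7954 of the 16225 genes lay above 0. The counts of list members below are to be read beside these shares. The precision limits what this contrast can show: the median standard error of a gene's difference was 0.23 on log2, against 0.16 for the flow response within the knockout line. Without knockout flow replicate 3, 8 genes passed (0.0493%), 3 higher and 5 lower (0.0308%), all 6 among them. Without static knockout replicate 1, 3 genes passed, the 3 higher ones.

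**Figure D1:**
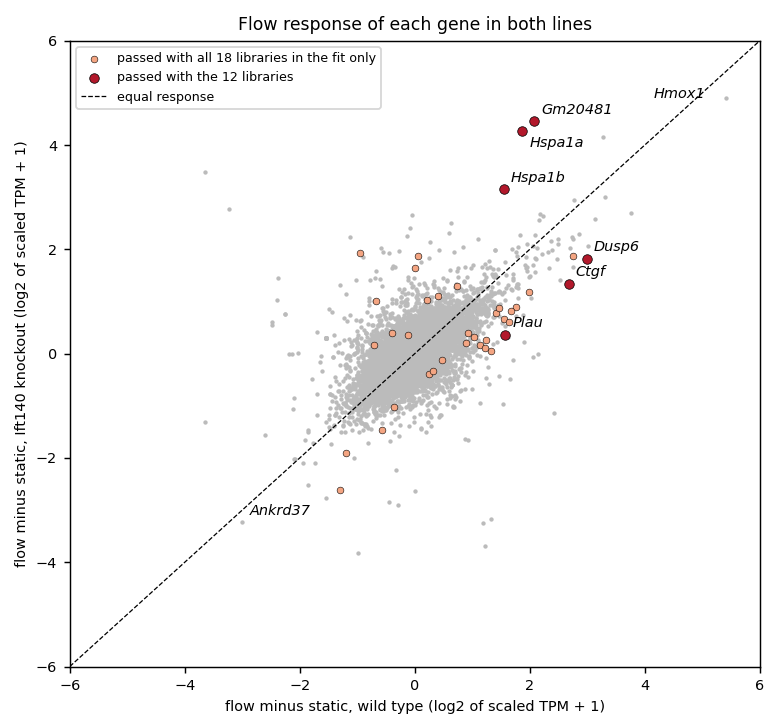
Flow minus static on log2 of scaled TPM plus 1 for each gene, in Ift140 knockout cells (vertical) against wild-type cells (horizontal). Dark points passed with the 12 libraries, light points with all 18 libraries in the fit only, and the dashed line marks equal responses. Hspa1a, Gm20481 and Hspa1b lie above it, and Dusp6, Ctgf and Plau below it; 2 of 16225 genes fall outside the axes.

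The 3 genes with a larger rise in the knockout come from a single heat shock locus. Hspa1a and Hspa1b encode the stress-inducible cytosolic Hsp70 chaperones, which bind unfolded proteins, and both lie on the minus strand of chromosome 17 (GRCm38, 34969190 to 34972156 and 34956436 to 34959238). Gm20481, a predicted gene, spans 34969912 to 34972136 on the plus strand, inside Hspa1a. It was not in the rule for named genes and is named because it passed. Whether counting used strand is not stated in the sources used here, so reads of Hspa1a and Gm20481 cannot be told apart. Hspa1a and Hspa1b are near-identical copies, and the split of reads between them is uncertain. The promoters show how alike the copies are. In the 250 bases before each start site in RefSeq GRCm38.p6, 247 bases are identical and 3 differ. They are printed 5′ to 3′ on the minus strand, at chr17:34972157-34972406 for Hspa1a and chr17:34959239-34959488 for Hspa1b. Capitals mark the match to the motif GAANNTTC, where N is any base.
Hspa1a: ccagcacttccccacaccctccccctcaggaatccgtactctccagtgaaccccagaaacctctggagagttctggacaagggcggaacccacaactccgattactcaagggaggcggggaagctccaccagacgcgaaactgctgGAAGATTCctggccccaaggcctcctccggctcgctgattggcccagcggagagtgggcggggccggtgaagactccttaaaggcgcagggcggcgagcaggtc
Hspa1b: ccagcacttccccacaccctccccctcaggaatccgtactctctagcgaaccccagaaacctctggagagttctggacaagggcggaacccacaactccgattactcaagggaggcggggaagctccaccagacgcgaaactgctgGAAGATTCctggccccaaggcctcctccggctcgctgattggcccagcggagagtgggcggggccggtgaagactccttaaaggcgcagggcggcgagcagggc

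The heat shock transcription factor HSF1 binds inverted repeats of GAA. Both promoters hold 1 match to GAANNTTC, 104 to 97 bases before the start. The motifs searched were GAANNTTC and TTCNNGAA, each of which is its own reverse complement, so both strands were covered. At least 1 match occurred in 12.8% of all 32851 RefSeq mouse promoter windows of this length, and in 10 of the 26 windows, some of them overlapping, of the 20 genes with an entry in the heat shock list. At least 1 window held a match in 9 of those genes, and the first window listed in 7. A match describes the letters and is no evidence of binding.

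Of the 3 genes, Hspa1b had the largest difference in TPM. In knockout cells it had 679, 588 and 668 TPM under flow and 65.4, 68.6 and 80.1 TPM in static culture. Wild-type cells had 71.7, 86.3 and 89.4 TPM under flow and 29.4, 26.5 and 26.7 TPM in static culture. The knockout flow libraries lay far above all others, and the static knockout libraries overlapped those of wild-type cells under flow. Flow raised Hspa1b by 3.16 on log2 (SE 0.11) in the knockout and by 1.54 (SE 0.11) in wild type, a difference of 1.62 (SE 0.15, 95% interval 1.29 to 1.95, adjusted p = 0.00216). In TPM the rise was 574 in the knockout and 54.9 in wild type, a difference of 519 (SE 27.4, adjusted p = 1.03e-05). Without knockout flow replicate 3 the log2 difference was 1.60 (adjusted p = 0.00871) and the difference in TPM 505 (adjusted p = 2.64e-05).

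Hspa1a had lower levels and the larger fold. It stood at 42.4, 34.0 and 39.7 TPM in knockout cells under flow and at 0.987, 0.934 and 1.204 TPM in static knockout cells. Wild-type libraries had 4.53, 5.21 and 6.49 TPM under flow and 0.713, 0.685 and 0.835 TPM in static culture. Both static groups were thus near 1 TPM, and the flow groups did not overlap. The log2 rise was 4.28 (SE 0.15) in the knockout and 1.87 (SE 0.15) in wild type, a difference of 2.41 (SE 0.21, interval 1.95 to 2.87, adjusted p = 0.00216; 2.40 without knockout flow replicate 3, adjusted p = 0.00871). On the TPM scale the difference was 33.0 (SE 2.62, adjusted p = 0.000427; 32.4, adjusted p = 0.00119, without that library).

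Gm20481 followed the same pattern as the gene it overlaps. Knockout cells had 79.0, 56.4 and 84.6 TPM under flow and 1.57, 2.88 and 2.74 TPM in static culture, and wild-type cells had 8.53, 10.03 and 10.6 TPM under flow and 1.5, 1.52 and 1.62 TPM in static culture. Its difference was 2.38 on log2 (SE 0.27, adjusted p = 0.0095; 2.28 without knockout flow replicate 3, adjusted p = 0.0248) and 62.8 in TPM (adjusted p = 0.0163; 56.8, adjusted p = 0.00692, without that library). Since the 3 rows share sequence, their sum was also tested as 1 gene, an alternative chosen after the data were seen; 4 genes then passed, this sum with Ctgf, Dusp6 and Plau. The summed level of Hspa1a and Hspa1b was 722, 622 and 707 TPM in knockout cells under flow, 66.4, 69.5 and 81.3 TPM in static knockout cells, 76.3, 91.5 and 95.8 TPM in wild-type cells under flow and 30.1, 27.2 and 27.5 TPM in static wild-type cells.

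**Figure D2:**
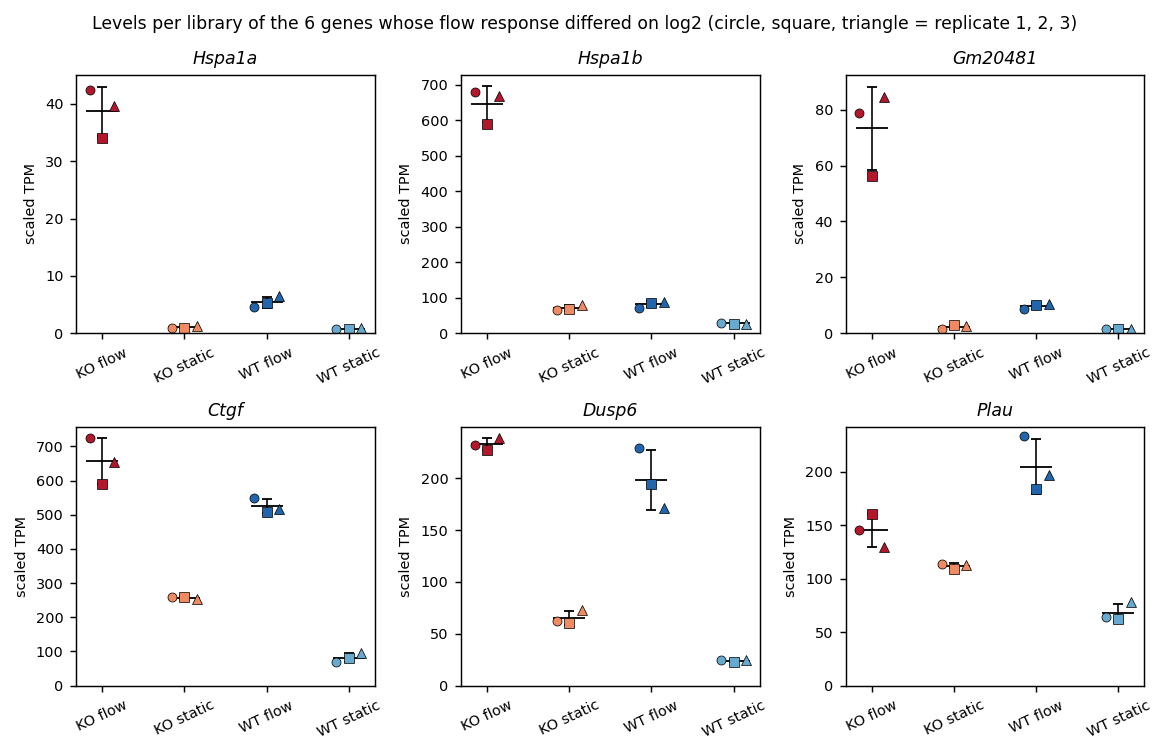
Scaled TPM per library of the 6 genes that passed for the difference on log2; KO is the Ift140 knockout and WT wild type, bars are the mean and SD of 3 libraries, and each axis starts at 0. Hspa1b averages 645 TPM in knockout cells under flow. Dusp6 reaches overlapping flow levels in both lines from different static levels. Ctgf averages 657 TPM in the knockout and 525 TPM in wild type under flow, also from different static levels.

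The list of heat shock genes holds 25 chaperones, cochaperones and heat shock factors, all tested, among them Hspa1a and Hspa1b themselves and the mitochondrial Hspd1 and Hspe1. Of the 25, 22 lay above 0, and the median difference was 0.28, against -0.01 over all genes. Without Hspa1a and Hspa1b, 20 of 23 lay above 0, from -0.23 to 1.10 with a median of 0.22. On log2 Hspa1a and Hspa1b alone passed, and in TPM Dnajb1 as well. At an unadjusted p under 0.05, 11 of the 25 lay above 0 and 0 below (2.85% and 3.65% of all genes). In the knockout 16 of the 25 rose under flow (6.51% of all genes rose there), and in wild type 12 rose (8.97% of all genes); 0 fell in either line (6.43% of all genes fell in the knockout and 7.72% in wild type). The summed level of the list ran from 9511 to 9888 TPM in knockout cells under flow, from 5501 to 5903 TPM in static knockout cells, from 5487 to 5876 TPM in wild-type cells under flow and from 4333 to 4407 TPM in static wild-type cells.

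Several members show how graded this was. They are examples chosen after their values were seen. Dnajb1, the Hsp40 partner that delivers clients to Hsp70, had 197, 163 and 187 TPM in knockout cells under flow and 68.7, 73.7 and 78.2 TPM in static knockout cells. Its wild-type libraries had 91.9, 99.1 and 98.8 TPM under flow and 58.2, 56.5 and 58.3 TPM in static culture. The difference of 0.56 on log2 (SE 0.12) had an adjusted p of 0.2, whereas the difference of 70.0 in TPM passed (adjusted p = 0.0495, and 0.0436 without knockout flow replicate 3). Hspb1, a small heat shock protein that holds unfolded clients, averaged 1196 ± 138 TPM under flow and 581.9 ± 64.4 TPM in static culture in the knockout, and 589 ± 48.9 TPM and 432 ± 14.2 TPM in wild type (SD, n = 3 each); its difference was 0.60 (adjusted p = 0.353). Its pseudogene copy Hsp25-ps1, which may share its reads, passed in TPM (difference 197, adjusted p = 0.0386; 185, adjusted p = 0.0371, without knockout flow replicate 3) and not on log2 (0.69, adjusted p = 0.162). Bag3, a cochaperone that couples Hsp70 to autophagy, had 11.96, 8.41 and 15.7 TPM in knockout cells under flow and 3.08, 3.45 and 2.95 TPM in static knockout cells, against 3.58, 4.59 and 3.84 TPM in wild-type cells under flow and 1.97, 2.45 and 2.44 TPM in static wild-type cells, with a difference of 1.00 (adjusted p = 0.394).

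The size of some members' difference varied with knockout flow replicate 3. Hsph1, a nucleotide exchange factor of Hsp70, had 227, 217 and 509 TPM in knockout cells under flow and 53.1, 70.5 and 66.3 TPM in static knockout cells. Its wild-type libraries had 106, 81.8 and 76.0 TPM under flow and 51.8, 37.7 and 32.4 TPM in static culture. Its difference was 1.10 with all libraries (adjusted p = 0.669) and 0.71 without knockout flow replicate 3 (adjusted p = 0.476). The mitochondrial cochaperonin gene Hspe1 had a difference of 0.63 (adjusted p = 0.541), and of 0.81 without that library (adjusted p = 0.1). The abundant constitutive chaperones Hspa8 and Hsp90aa1 had differences of 0.21 (adjusted p = 0.85) and 0.29 (adjusted p = 0.699). Hsf1, which encodes the heat shock transcription factor, had a difference of 0.12 (adjusted p = 0.965), and its RNA averaged 43.2 TPM in knockout cells and 29.2 TPM in wild-type cells under flow. These are levels under flow alone and do not measure a larger rise of Hsf1 under flow.

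The 3 genes with a smaller log2 rise in the knockout are early targets of growth factor and mechanical signals. Ctgf (GRCm38, chromosome 10, 24595442 to 24598683), now named Ccn2, a secreted matrix protein gene induced by YAP and TGF-beta, had 725, 590.5 and 656 TPM in knockout cells under flow and 261, 260.4 and 252 TPM in static knockout cells. The wild-type libraries had 549, 509 and 518 TPM under flow and 69.5, 80.8 and 95.6 TPM in static culture. Static knockout cells thus lay between the static and flow levels of wild type, and neither the flow groups nor the static groups overlapped. Flow raised Ctgf by 1.34 (SE 0.11) in the knockout and by 2.68 (SE 0.11) in wild type, a difference of -1.33 (SE 0.16, interval -1.67 to -0.99, adjusted p = 0.0105; -1.32, adjusted p = 0.026, without knockout flow replicate 3). In TPM the rise was 399 in the knockout and 443 in wild type, and the difference of -43.7 did not pass (SE 40.1, adjusted p = 0.889). The log2 call was lost without static knockout replicate 1 (adjusted p = 0.0544).

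Dusp6 (GRCm38, chromosome 10, 99263231 to 99267489) encodes the cytoplasmic phosphatase that switches off ERK and is itself induced by ERK. It had 232, 227 and 239 TPM in knockout cells under flow and 62.7, 60.4 and 72.7 TPM in static knockout cells. In wild-type cells it had 229, 195 and 171 TPM under flow and 24.8, 22.5 and 24.4 TPM in static culture. The flow groups overlapped, and the static groups did not. The rise was 1.82 (SE 0.11) in the knockout and 2.99 (SE 0.11) in wild type, a difference of -1.17 (SE 0.15, interval -1.5 to -0.84, adjusted p = 0.0221; -1.18, adjusted p = 0.0418, without knockout flow replicate 3). The TPM rises, 167 in the knockout and 174 in wild type, differed by -6.99 (SE 16.4, adjusted p = 0.962). The direction of the log2 difference held when any library was left out, but the call did not: adjusted p was 0.0638 and 0.0668 without knockout flow replicate 1 or 2, 0.0788 and 0.0634 without static knockout replicate 1 or 3, 0.0861 without wild-type flow replicate 2, and 0.073, 0.0953 and 0.0771 without static wild-type replicate 1, 2 or 3.

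Plau (GRCm38, chromosome 14, 20836660 to 20843385) encodes urokinase, the protease that activates plasminogen at the cell surface. It had 145, 161 and 129.6 TPM in knockout cells under flow and 114, 109 and 113 TPM in static knockout cells. In wild-type cells it had 233, 183 and 197 TPM under flow and 63.8, 62.6 and 78.1 TPM in static culture. Under flow Plau, unlike Ctgf and Dusp6, was lower in the knockout than in wild type (-0.49, adjusted p = 0.0189, where 10.7% of all genes passed). In static culture Plau was higher in the knockout (0.72, adjusted p = 0.00209, where 7.5% of all genes were higher). So were Ctgf (1.65, adjusted p = 4.5e-06) and Dusp6 (1.41, adjusted p = 1.38e-05). For Plau neither pair of groups overlapped. The knockout's flow response of 0.37 did not pass (SE 0.11, adjusted p = 0.0589), and wild type rose by 1.57 (SE 0.11). Their difference was -1.21 (SE 0.16, interval -1.56 to -0.85, adjusted p = 0.0288; -1.12, adjusted p = 0.0489, without knockout flow replicate 3), and in TPM -103 (SE 16.9, adjusted p = 0.0543). The log2 call was lost without knockout flow replicate 1 (adjusted p = 0.0723), without static knockout replicate 1, 2 or 3 (0.146, 0.12 and 0.117), without wild-type flow replicate 1 or 3 (0.065 and 0.108) and without static wild-type replicate 1 or 2 (0.137 and 0.117).

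**Figure D3:**
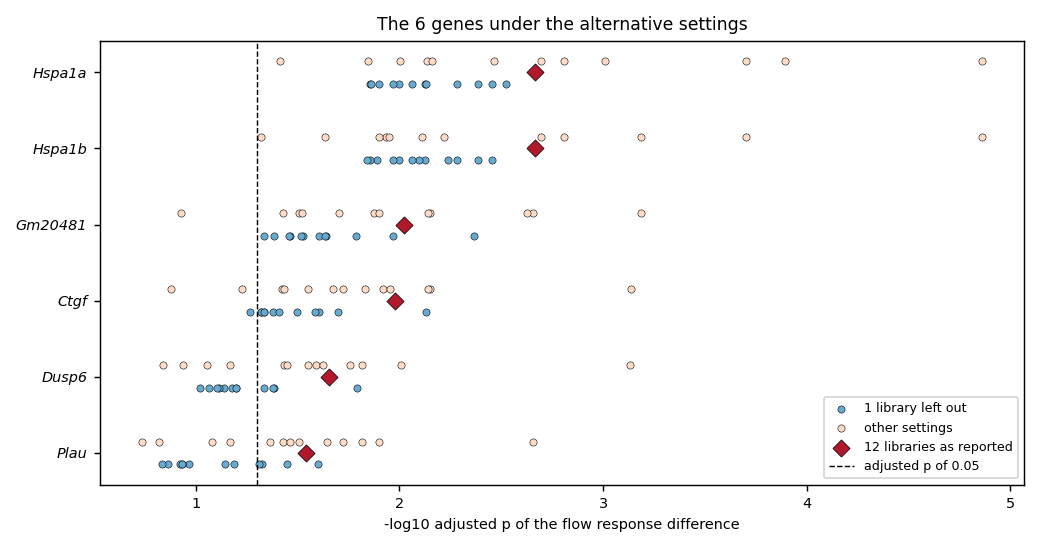
Adjusted p of the difference, as -log10, for the 6 genes with the 12 libraries (diamond), with 1 library left out (dark points) and under the other settings on log2 (light points); the dashed line is 0.05. Hspa1a and Hspa1b stay right of the line in all 24 settings, Gm20481 in 23 of 24 and Ctgf in 22 of 25, while Dusp6 and Plau cross it and stay right in 13 of 25 each.

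The lists around Dusp6 leaned below 0. Over all genes, 7954 of 16225 lay above 0, and 2.85% lay above and 3.65% below at an unadjusted p under 0.05. Of 20 ERK feedback and target genes 16 lay below 0 (4 above), with a median difference of -0.34; 1 passed, Dusp6, and 8 lay below and 0 above at an unadjusted p under 0.05. Under flow 12 of the 20 rose in the knockout (6.51% of all genes) and 15 in wild type (8.97% of all genes), and 9 members were higher in static knockout cells than in static wild-type cells (7.5% of all genes). Dusp4, which encodes a nuclear phosphatase of ERK, had 38.1, 33.1 and 37.9 TPM in knockout cells under flow and 8.56, 9.81 and 9.26 TPM in static knockout cells, against 41.6, 39.8 and 38.5 TPM in wild-type cells under flow and 5.34, 4.77 and 5.06 TPM in static wild-type cells. Its difference was -0.89 (SE 0.14, adjusted p = 0.0681). Ier3, an ERK-induced survival gene, averaged 152 ± 16.8 TPM under flow and 134 ± 6.0 TPM in static culture in the knockout, and 112 ± 10.2 TPM and 50.9 ± 4.81 TPM in wild type (SD, n = 3 each); its difference was -0.96 (SE 0.14, adjusted p = 0.0639). Dusp5, another nuclear ERK phosphatase gene, lay at -0.55 on log2 (adjusted p = 0.49) but at 7.44 in TPM (adjusted p = 0.942), so its direction depended on the scale.

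Upstream of ERK, 0 of the 13 tested genes of the EGF receptor family and its ligands passed with limma, with a median of -0.06. At an unadjusted p under 0.05, 4 lay below 0 and 0 above (3.65% and 2.85% of all genes). The ligand gene Areg had 7.21, 10.4 and 8.76 TPM in knockout cells under flow and 0.114, 0.482 and 1.05 TPM in static knockout cells, against 16.8, 14.01 and 11.1 TPM in wild-type cells under flow and 0, 0.108 and 0.179 TPM in static wild-type cells. Its difference was -1.06 (SE 0.33, adjusted p = 0.507). Hbegf, which encodes another ligand, lay at -0.52 (adjusted p = 0.5), and the receptor gene Egfr at 0.01. Of 31 immediate early genes, the transcription factors and regulators induced within minutes of a stimulus, 0 passed, 10 lay above 0, and 7 lay below and 0 above at an unadjusted p under 0.05. Junb, an AP-1 subunit gene, had 164, 160 and 153 TPM in knockout cells under flow and 114, 125 and 124 TPM in static knockout cells. Its wild-type libraries had 182, 181 and 167 TPM under flow and 90.5, 94.5 and 91.2 TPM in static culture, and the difference was -0.54 (SE 0.10, adjusted p = 0.112). The early genes Fos, Jun and Egr1 lay at -0.09, -0.04 and 0.18, and did not pass.

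Among 20 YAP and TAZ targets and pathway genes, Ctgf alone passed on log2, and 7 lay above 0 (median -0.10). At an unadjusted p under 0.05, 6 lay below and 0 above (3.65% and 2.85% of all genes). In static culture 8 of the 20 were higher in the knockout than in wild type (7.5% of all genes). Cyr61, the close relative of Ctgf, had 984, 843 and 773 TPM in knockout cells under flow and 551, 519.6 and 555 TPM in static knockout cells. Wild-type cells had 709.5, 646 and 627 TPM under flow and 205, 227 and 244 TPM in static culture. Its difference was -0.88 on log2 (SE 0.14, adjusted p = 0.0861) and -111 in TPM (SE 65.2, adjusted p = 0.795). Ankrd1, a muscle and epithelial YAP target, lay at -0.39 (adjusted p = 0.765), and the coactivator gene Yap1 at 0.13. Of 22 tested extracellular matrix and protease genes Plau alone passed on log2, 7 lay above 0 and the median was -0.26. At an unadjusted p under 0.05, 7 lay below and 1 above. In static culture 9 of the 22 were higher and 3 lower in the knockout (1217 and 1038 of all 16225 genes). Plat, the tissue plasminogen activator gene, lay at -0.54 (adjusted p = 0.507), and the urokinase receptor gene Plaur at -0.39.

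Measured in TPM rather than as a fold, the difference passed for 11 genes, 0.0678% of those tested, 6 higher (0.037%) and 5 lower (0.0308%). This scale compares changes in TPM, which is a relative level and does not measure the amount of RNA per cell. Its calls depend more on the libraries. Without knockout flow replicate 3, 32 genes passed (0.197%), 22 higher (0.136%) and 10 lower (0.0616%). Without static wild-type replicate 3, static knockout replicate 1 or static knockout replicate 3, 3 genes passed. Without any other library except knockout flow replicate 2, 4 to 6 passed. The 6 higher genes were Hspa1a, Hspa1b, Gm20481, Dnajb1, Hsp25-ps1 and Acot2, and the 5 lower were Nqo1, Angptl4, Lfng, Kctd11 and Gjb2. Those outside the heat shock genes are named because they passed on this scale. Acot2, which encodes a mitochondrial acyl-CoA thioesterase, had 26.0, 27.4 and 26.5 TPM in knockout cells under flow and 12.5, 11.7 and 13.6 TPM in static knockout cells. In wild-type cells it had 10.9, 13.3 and 14.4 TPM under flow and 10.9, 10.3 and 11.6 TPM in static culture. Only the knockout flow group stood apart; the difference was 12.1 TPM (adjusted p = 0.0361; 12.2, adjusted p = 0.0293, without knockout flow replicate 3) and 0.81 on log2 (adjusted p = 0.152).

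Nqo1, a quinone reductase gene and NRF2 target, shows how the scales part. It had 3.51, 4.41 and 2.30 TPM in knockout cells under flow and 0.364, 0.723 and 1.96 TPM in static knockout cells. The wild-type libraries had 44.8, 48.3 and 40.6 TPM under flow and 15.4, 12.1 and 16.2 TPM in static culture. The gene was nearly lost in the knockout line in both conditions. Its difference was -27.6 TPM (adjusted p = 0.00344; -26.7, adjusted p = 0.00692, without knockout flow replicate 3), while the log2 difference of -0.38 did not pass (adjusted p = 0.933) and was 0.26 with a pseudocount of 0.1. Angptl4, a secreted inhibitor of lipoprotein lipase, went opposite ways on the scales: -33.4 in TPM (adjusted p = 0.0412; -30.5, adjusted p = 0.0436, without knockout flow replicate 3) and 0.51 on log2 (adjusted p = 0.72). It averaged 31.3 ± 4.04 TPM under flow and 4.04 ± 0.799 TPM in static culture in the knockout, and 77.0 ± 7.50 TPM and 16.3 ± 2.39 TPM in wild type (SD, n = 3 each).

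Lfng, which encodes a glycosyltransferase that tunes Notch receptors, leaned below 0 on both scales. It had 32.8, 32.5 and 26.0 TPM in knockout cells under flow and 25.8, 26.8 and 28.1 TPM in static knockout cells, against 93.6, 83.2 and 76.5 TPM in wild-type cells under flow and 39.3, 43.2 and 39.2 TPM in static wild-type cells. Its flow response was 0.17 in the knockout (adjusted p = 0.36) and 1.04 in wild type, a difference of -40.3 TPM (adjusted p = 0.0361; -37.4, adjusted p = 0.0374, without knockout flow replicate 3) and -0.87 on log2 (adjusted p = 0.112). Kctd11, an adaptor gene of a ubiquitin ligase, had 10.4, 9.71 and 9.25 TPM in knockout cells under flow and 15.4, 15.6 and 14.01 TPM in wild-type cells under flow. Its static levels averaged 6.11 ± 0.189 TPM in the knockout and 4.15 ± 0.348 TPM in wild type, and the difference was -7.14 TPM (adjusted p = 0.0407; -6.74, adjusted p = 0.0419, without knockout flow replicate 3) and -1.03 on log2 (adjusted p = 0.0623). Gjb2, a gap junction gene, was near 0 in the knockout, at 0.0507, 0.0212 and 0.0552 TPM under flow and at 0.0104, 0.01 and 0.0182 TPM in static culture, against 2.59, 2.66 and 2.80 TPM in wild-type cells under flow and 0.199, 0.392 and 0.865 TPM in static wild-type cells. The difference was -2.17 TPM (adjusted p = 0.0407), and -2.15 TPM without knockout flow replicate 3 (adjusted p = 0.0474). On log2 the Gjb2 difference of -1.29 did not pass (adjusted p = 0.164).

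**Figure D4:**
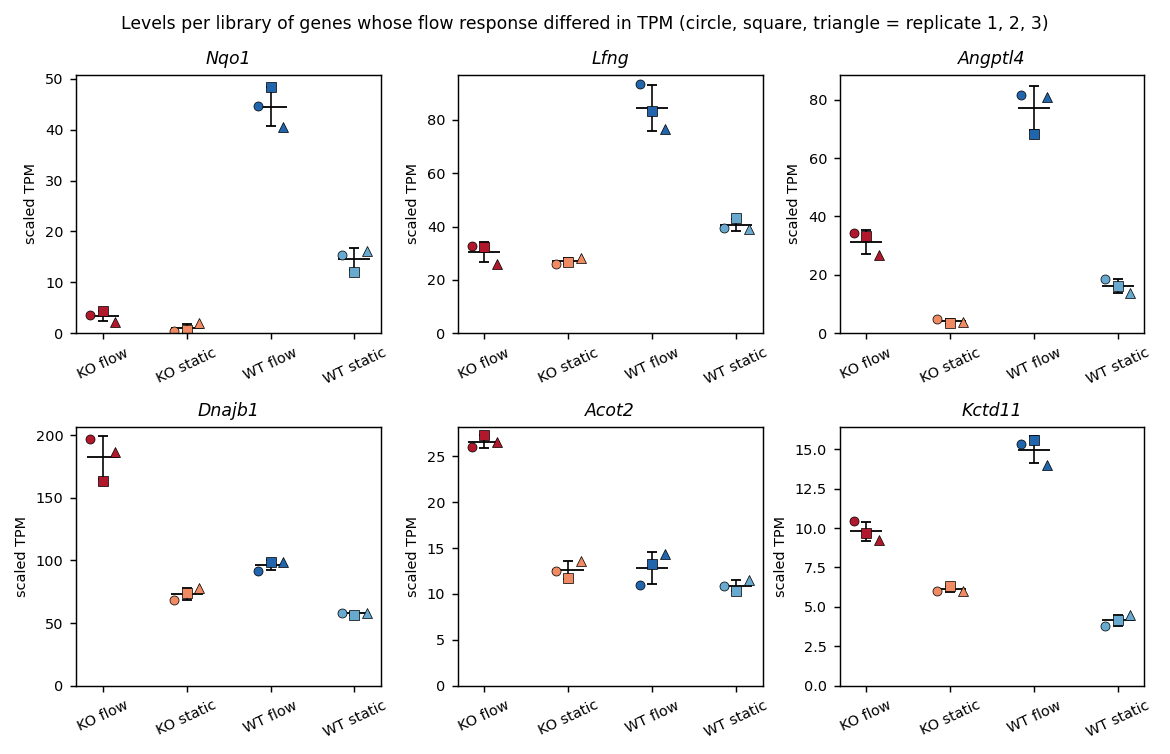
Scaled TPM per library of 6 genes that passed for the difference in TPM, with the mean and SD of 3 libraries per group; KO is the Ift140 knockout and WT wild type, and each axis starts at 0. Nqo1 and Lfng sit below wild type in both conditions, Dnajb1 and Acot2 stand highest in knockout cells under flow, and Angptl4 and Kctd11 rise under flow in both lines.

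More genes passed when the spread was estimated from more libraries or weighted by library. With all 18 libraries in the fit, 38 of 16718 genes passed (0.227%), 13 higher (0.0778%) and 25 lower (0.15%), the 6 genes above among them; the added 6 libraries are of the Dync2h1 knockout and only inform the spread, scaling and filter. With a weight per library, 49 passed (0.302%), and knockout flow replicate 3 had a weight of 0.191, the lowest. The following were chosen from these calls after their values were seen, and none passed with the 12 libraries alone. Fst, which encodes the activin inhibitor follistatin, had 302, 280.01 and 279 TPM in knockout cells under flow and 224, 219.7 and 247 TPM in static knockout cells, against 154, 133 and 145 TPM in wild-type cells under flow and 68.5, 65.1 and 77.9 TPM in static wild-type cells. Its difference was -0.71 (adjusted p = 0.112), and -0.68 with 18 libraries (adjusted p = 0.0148). In TPM the Fst difference of -16.7 did not pass (adjusted p = 0.889). F2rl1, a protease-activated receptor gene, lay at -0.81 (adjusted p = 0.0993; 0.00961 with 18 libraries). Ccnd1 encodes the cyclin that drives cells from G1 into S phase. In the knockout it averaged 35.5 ± 1.14 TPM under flow and 30.7 ± 1.90 TPM in static culture (SD, n = 3 each). Wild type averaged 20.3 ± 0.587 TPM and 10.4 ± 0.201 TPM. The Ccnd1 difference was -0.69 on log2 (adjusted p = 0.0993, and 0.00536 with 18 libraries). In TPM it was -4.98 and did not pass (adjusted p = 0.642).

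Further genes were likewise chosen after their values were seen. Tfrc, the transferrin receptor gene, had 226, 244 and 231 TPM in knockout cells under flow and 194, 187 and 200.1 TPM in static knockout cells, against 304, 222 and 221 TPM in wild-type cells under flow and 122, 98.3 and 93.6 TPM in static wild-type cells. The flow groups overlapped (knockout minus wild type -0.077, adjusted p = 0.744), and the static groups did not (0.89, adjusted p = 0.00105). The flow response difference was -0.97 (adjusted p = 0.127; 0.0245 with 18 libraries). The tight junction gene Cldn4 had 390.6, 393 and 314 TPM in knockout cells under flow and 186, 189 and 214 TPM in static knockout cells, against 639, 492 and 479.8 TPM in wild-type cells under flow and 155.9, 156 and 157 TPM in static wild-type cells; its difference was -0.87 (adjusted p = 0.152; 0.0368 with 18 libraries). Pdk4, a kinase gene that restrains glucose oxidation, was measured in the knockout at 2.65, 4.81 and 4.07 TPM under flow and 0.873, 0.462 and 0.292 TPM in static culture, and was listed at or near 0 in wild type; its log2 difference was 1.65 (adjusted p = 0.112; 0.0101 with 18 libraries). Among the 1419 genes that passed for flow in both lines, Zfp266, a zinc finger gene, rose by 0.40 in the knockout and fell by 0.39 in wild type, a difference of 0.79 (adjusted p = 0.112). Without knockout flow replicate 3, Rab11fip5, a gene of recycling endosomes, and Eno2, a glycolysis gene, passed as lower, at -0.86 (adjusted p = 0.0179) and -1.48 (adjusted p = 0.0415). With all libraries they lay at -0.67 (adjusted p = 0.465) and -1.31 (adjusted p = 0.127); Rab11fip5 had 327 TPM in knockout flow replicate 3, against 227 and 204 TPM in replicates 1 and 2.

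The large flow responses of Hmox1 and Ankrd37 passed in both lines, with no called difference. Hmox1, the heme-degrading enzyme and NRF2 target, had 855, 795 and 892 TPM in knockout cells under flow and 30.2, 27.4 and 25.1 TPM in static knockout cells. Wild-type cells had 757, 659.8 and 663 TPM under flow and 14.3, 17.6 and 14.4 TPM in static culture. The flow groups did not overlap, with the knockout higher, and neither did the static groups. The rise was 4.89 (SE 0.10) in the knockout and 5.41 (SE 0.10) in wild type, a difference of -0.51 (SE 0.14, interval -0.82 to -0.20, adjusted p = 0.419), while in TPM the difference was 142 (SE 41.9, adjusted p = 0.377). Ankrd37, a hypoxia-induced gene, had 6.86, 6.82 and 7.23 TPM in knockout cells under flow and 76.0, 67.4 and 78.4 TPM in static knockout cells, against 6.06, 5.03 and 5.35 TPM in wild-type cells under flow and 58.5, 47.7 and 47.1 TPM in static wild-type cells. Its fall was -3.23 (SE 0.11) in the knockout and -3.00 (SE 0.11) in wild type, and the difference of -0.23 did not pass (SE 0.16, interval -0.57 to 0.12, adjusted p = 0.891).

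The 25 NRF2 targets of oxidative stress had a median difference of 0.00, with 13 above 0 (7954 of 16225 over all genes). On log2 with limma 0 passed. At an unadjusted p under 0.05, 1 lay above and 3 below (2.85% and 3.65% of all genes). Under flow 17 rose in each line (6.51% of all genes in the knockout and 8.97% in wild type). Srxn1, a peroxiredoxin repair gene, lay at -0.50 (adjusted p = 0.536), and Txnrd1, the thioredoxin reductase gene, at 0.01. Of 31 hypoxia and glycolysis genes 0 passed, 10 lay above 0 (median -0.12), and 1 lay above and 5 below at an unadjusted p under 0.05. The vascular growth factor gene Vegfa lay at -0.48 (adjusted p = 0.532). The 25 cholesterol synthesis genes had a median of -0.21, with 5 above 0; 0 passed, and 8 lay below and 0 above at an unadjusted p under 0.05. Hmgcs1, an early enzyme of the pathway, had 102, 111 and 105 TPM in knockout cells under flow and 211, 204 and 232 TPM in static knockout cells, against 133, 123 and 122 TPM in wild-type cells under flow and 153, 166 and 166 TPM in static wild-type cells. It fell by 1.02 in the knockout and by 0.36 in wild type, and the difference of -0.66 (SE 0.11) had an adjusted p of 0.0861 (0.0731 without knockout flow replicate 3, 0.0148 with 18 libraries). Insig1, the sterol sensor that restrains the pathway, lay at -0.65 (adjusted p = 0.209).

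Cilium genes gave no called difference. Over all genes, 7954 of 16225 lay above 0, and 2.85% lay above and 3.65% below at an unadjusted p under 0.05. Of 32 tested genes of intraflagellar transport 0 passed with limma, 23 lay above 0 (median 0.11), and 2 lay above and 0 below at an unadjusted p under 0.05. Of 35 genes of the BBSome and transition zone, which sort cargo and guard the entry of the cilium, 0 passed, 22 lay above 0 (median 0.10), and 2 lay above and 0 below. Ift140 itself had a difference of 0.62 (SE 0.29, interval -0.02 to 1.27, adjusted p = 0.783), and 0.34 without knockout flow replicate 3 (adjusted p = 0.614). Dync2h1, the heavy chain gene of the ciliary dynein, had 23.2, 29.1 and 43.5 TPM in knockout cells under flow, 31.8, 34.2 and 31.9 TPM in static knockout cells, 36.5, 28.7 and 31.8 TPM in wild-type cells under flow and 40.7, 46.0 and 34.2 TPM in static wild-type cells. Its difference was 0.23 (SE 0.27, interval -0.36 to 0.82, adjusted p = 0.947). The transition zone gene Mks1 lay at 0.85 (adjusted p = 0.752), the ciliary cargo adapter gene Tulp3 at 1.07 (adjusted p = 0.699; 0.70 without knockout flow replicate 3), and Wdr19, a partner of Ift140 in complex A, at 0.49 (adjusted p = 0.765). Of 8 tested Hedgehog pathway genes, whose signal depends on the cilium, 0 passed; Kif7, a kinesin gene of the pathway, lay at -0.55 (adjusted p = 0.765), and 1 lay below and 0 above at an unadjusted p under 0.05.

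In the remaining lists 0 members passed with limma on log2 with the 12 libraries. Their counts stand beside 7954 of 16225 genes above 0, and 2.85% above and 3.65% below at an unadjusted p under 0.05. The 27 mitosis genes lay mostly above 0 (22, median 0.11; 1 above and 0 below at an unadjusted p under 0.05). Under flow 12 of the 27 fell in the knockout (6.43% of all genes) and 16 in wild type (7.72% of all genes). The 25 replication genes had a median of 0.04, with 0 on either side at an unadjusted p under 0.05. Of 18 tested claudin and tight junction genes 4 lay above 0 (median -0.21; 1 above and 6 below), including occludin, Ocln, at -0.63 (adjusted p = 0.353). Of 18 tested TGF-beta and BMP targets 4 lay above 0 (median -0.17; 0 above and 6 below), and of 19 NF-kB targets 4 (median -0.11; 0 above and 5 below), where the noncanonical subunit gene Nfkb2 had 89.2, 91.3 and 102 TPM in knockout cells under flow and 108, 103 and 96.7 TPM in static knockout cells, against 126, 115 and 121 TPM in wild-type cells under flow and 80.8, 89.4 and 90.3 TPM in wild-type cells in static culture; it lay at -0.59 (adjusted p = 0.142). Of 24 p53 targets 9 lay above 0 (median -0.13; 1 above and 6 below), and of 21 actin and SRF genes 7 (median -0.07; 0 above and 4 below), where Fhl2, a focal adhesion and nuclear cofactor gene, lay at -0.63 (adjusted p = 0.117; 0.0511 without knockout flow replicate 3). The 21 interferon-stimulated genes had 13 above 0 (median 0.16; 3 above and 0 below); Ifit3 averaged 65.1 ± 7.86 TPM under flow and 80.6 ± 7.27 TPM in static culture in the knockout, and 16.2 ± 2.26 TPM and 36.3 ± 0.732 TPM in wild type (SD, n = 3 each), a difference of 0.81 (adjusted p = 0.191). The 26 ATF4 genes of the amino acid response had a median of -0.01 (1 above and 2 below), the 21 chaperones and degradation genes of the endoplasmic reticulum 0.10 (2 above and 0 below), the 10 prostaglandin genes -0.15 (0 on either side), the 15 Notch genes 0.07 (2 above and 1 below), the 12 polycystin, mechanosensitive and purinergic genes 0.02 (0 above and 1 below) and the 12 linker and replacement histone genes 0.05 (0 above and 2 below). Pkd1 and Pkd2, the polycystin genes, lay at -0.08 and -0.04. The 12 tested mitochondrially encoded genes had a median of 0.04 (0 above and 1 below). None of the members of the cell type marker lists passed; among the 16 epithelial markers 6 lay above 0 (1 above and 3 below at an unadjusted p under 0.05), Krt8 lay at -0.36 and Cdh1 at -0.10, and the other marker lists had 1 to 4 tested members each. In bulk RNA, fewer cells of a type and less RNA per cell cannot be told apart.

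**Figure D5:**
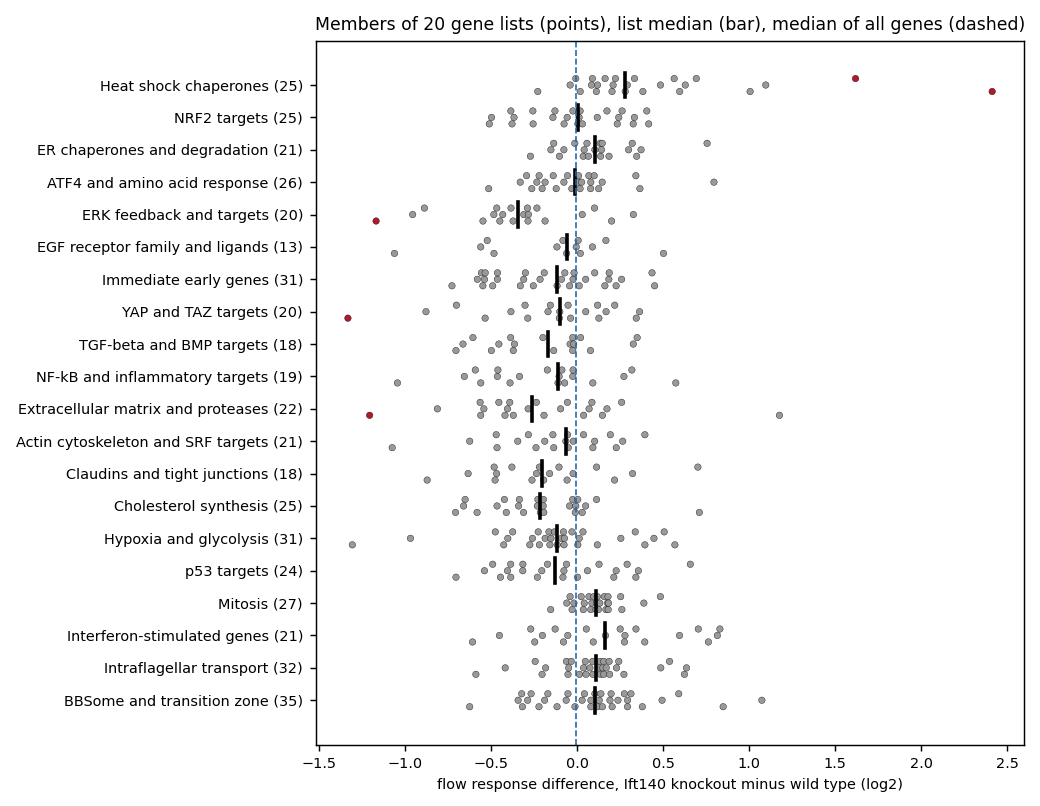
Flow response difference on log2, Ift140 knockout minus wild type, of the tested members of 20 lists; each point is a gene, filled dark where it passed, the black bar is the list median and the dashed line the median of all genes (-0.01). The heat shock list has its median at 0.28, and the ERK list at -0.34; only 5 of the points passed.

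The second knockout of the series, of Dync2h1, offers its own flow response difference against the same wild-type libraries; since these are shared, the values are set side by side only. In the fit of all 18 libraries, Hspa1a differed from wild type by 2.42 in the Ift140 line (adjusted p = 1.37e-05) and by 1.05 in the Dync2h1 line (adjusted p = 0.0155). The lines themselves differed by 1.37, Ift140 minus Dync2h1 (adjusted p = 0.00973). The split of reads between Hspa1a, Hspa1b and Gm20481 is uncertain, so this value may not belong to Hspa1a alone. Gm20481 differed by 2.40 in the Ift140 line (adjusted p = 0.00222) and by 1.05 in the Dync2h1 line (adjusted p = 0.188). Between the lines Gm20481 differed by 1.35, which did not pass (adjusted p = 0.156). Hspa1b differed by 1.64 in the Ift140 line (adjusted p = 1.37e-05) and by 1.37 in the Dync2h1 line (adjusted p = 5.63e-05), with 0.27 between the lines (adjusted p = 0.559). Dusp6 differed by -1.14 in the Ift140 line (adjusted p = 0.000735) and by -1.86 in the Dync2h1 line (adjusted p = 3.66e-06), and by 0.72 between the lines (adjusted p = 0.0433). Ctgf differed by -1.31 in the Ift140 line (adjusted p = 0.00073) and -1.5 in the Dync2h1 line (adjusted p = 5.63e-05), and Plau by -1.18 (adjusted p = 0.00222) and -1.01 (adjusted p = 0.00328). Between the lines these 2 genes differed by 0.20 (adjusted p = 0.704) and -0.17 (adjusted p = 0.753), which does not show that the lines act alike.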

How the data were processed

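RNA sequencing values of 12 libraries were used, 3 in each of 4 groups taken from the labels. The tools RSEM 1.2.31, Bowtie2 2.1.0 and FastQC 0.11.5 and the builds GRCm38.p5 and mm10 are named in the submitters' processing notes; the annotation and strand setting are not given in the sources used here. The authors deposited TPM with 49845 gene names per library and a row of totals, dropped here. TPM keeps no depth, so the counting precision is unknown. Names were matched to GENCODE vM21 for coordinates (15659 of the genes tested).

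Libraries were scaled by a trimmed mean of log ratios (30% of ratios and 5% of abundances trimmed). Genes with at least 1 TPM in 3 or more of the 12 libraries were kept, 16225. The difference was tested with limma 3.58.1 in R 4.3.3 on log2(scaled TPM + 1) with 4 group means, 8 residual degrees of freedom, a mean-variance trend and Benjamini-Hochberg adjustment over all genes; a fold of a low gene is understated by the pseudocount of 1. For the TPM scale the same test used scaled TPM divided by the gene's mean over the 12 libraries, and differences are printed in TPM. The method was tested on simulated data. The members and lists, 35 with 717 memberships, were chosen with earlier results of these data known. Genes were named where they passed with and without knockout flow replicate 3, with the same sign in TPM, at least 5 TPM in a group and no predicted name, and Hmox1, Ankrd37, Ift140 and Dync2h1 always; genes outside this rule were chosen after their values were seen. Alternatives changed the libraries, scaling, filter, pseudocount, variance model, use of replicate numbers and scale. Promoter sequences are from RefSeq. The single values of some list members are not reported here.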

Additional observations from a re-analysis of the deposited data

Results flagged for a closer look

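The genes whose flow response differed between Ift140 knockout and wild-type cells by a test of the difference itself are the following. On log2 the differences, knockout minus wild type, were 2.41 for Hspa1a, 1.62 for Hspa1b, 2.38 for Gm20481, -1.33 for Ctgf, -1.17 for Dusp6 and -1.21 for Plau. In TPM they were 33.0 for Hspa1a, 519 for Hspa1b, 62.8 for Gm20481, 70.0 for Dnajb1, 197 for Hsp25-ps1, 12.1 for Acot2, -27.6 for Nqo1, -33.4 for Angptl4, -40.3 for Lfng, -7.14 for Kctd11 and -2.17 for Gjb2. The check for an outlying library within a group needs more than 3 libraries and was not run.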

How the results depend on the processing

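Hspa1a and Hspa1b passed on log2 in all 24 alternatives that kept them as separate rows, with differences of 1.997 to 2.53 and 1.52 to 1.70, and all 6 genes kept their direction in every log2 alternative. The 6 calls on log2 became 38 with all 18 libraries, 49 with library weights, 18 without the filter and 11 on the TPM scale, and ranged from 3 to 8 with 1 library left out (3 without static knockout replicate 1). The 11 calls in TPM became 75 with all 18 libraries, 121 with library weights, 19 with a filter of 5 TPM, 4 without the filter, 19 without the mean-variance trend, 3 with TPM as deposited and 2 with Hspa1a, Hspa1b and Gm20481 summed, and ranged from 3 to 32 with 1 library left out. Genes whose flow change passed in both lines in one direction numbered 5 of the 6 (23 with all 18 libraries, 23 with weights, 8 without the filter, 3 with the summed row, and 3 to 7 with 1 library left out). Ift140 under flow, -0.68 with the 12 libraries, passed with all 18 libraries (-0.67, adjusted p = 0.0295), with weights (-0.94, adjusted p = 0.000992) and with quantile normalisation (-0.67, adjusted p = 0.0456), and ranged from -0.96 to -0.50 with 1 library left out. Dusp6 was also lost with TPM as deposited (adjusted p = 0.115) and without the trend (0.0679), and Plau without the filter (0.0837) and without the trend (0.0679). The cause of these shifts was not tested.

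Direction turned for Angptl4 (-1.04 of its mean, adjusted p = 0.0412), Dusp5 (0.10 of its mean) and Hmox1 (0.36 of its mean) on the TPM scale, for Nqo1 with a pseudocount of 0.1 (0.26), and for Dync2h1, 0.23 with the 12 libraries, with weights (-0.0543) and without knockout flow replicate 3 (-0.000805, against up to 0.43 with another library left out).

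The labels do not say that replicate numbers pair libraries, and the deviations of same-numbered libraries did not move together (r from -0.196 to 0.111 in 18 pairs, 1 of them over 0.1). With the replicate block, 3 genes passed on log2 and 4 in TPM, all 3 with flow passing in both lines, and without knockout flow replicate 3 as well 2 did in both counts; Ctgf, Dusp6 and Plau were lost with the replicate block (adjusted p = 0.059, 0.0882 and 0.152), and Gm20481 with the block and without that library (0.118). Ift140 under flow was -0.68 with the block (adjusted p = 0.0388) and -0.91 without that library as well (adjusted p = 0.00409), and Dync2h1 then lay at -0.0460.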

Other observations

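The largest log2 differences belonged to rows whose values jumped between replicates. AC157822.2, whose difference of 10.8 was the largest and was shared by AC099934.2 (SE 3.84, adjusted p = 0.631), was listed at 0, 654 and 0 TPM in knockout cells under flow, at 0 in all static knockout libraries, at 935, 0 and 0 TPM in wild-type cells under flow and at 4019, 2109 and 886 TPM in wild-type cells in static culture. Of the 16225 genes, 383 had a difference over 1 on log2 in either direction. The mitochondrial gene mt-Co2 was listed at 0 in every flow library of both lines, at 8.39, 13.1 and 20.2 TPM in static knockout cells and at 0, 6.72 and 0 TPM in wild-type cells in static culture (difference -2.83, adjusted p = 0.529); a 0 for a gene that every cell uses can be a failed estimate.

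Among the 365 genes that passed in wild-type cells with a change of at least 2-fold, 352 moved in the same direction in the knockout. Of the 365, 281 passed there in that direction (12.9% of all genes passed there in either direction), and 289 had the smaller change in the knockout. Among the 324 such genes of the knockout, 310 moved in the same direction in wild type. Of the 324, 243 passed there in that direction (16.7% of all genes passed there in either direction), and 226 had the smaller change in wild type. The share of all genes that moved in the same direction in both lines was not counted. In each list the line that chose the genes is favoured, so the counts of smaller changes are not a comparison of the lines.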
